A study of Mus musculus with 8 samples.

Results

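The data described here are the strand-wise tag profiles around HMGA2 peaks. They come from chromatin immunoprecipitation followed by sequencing (ChIP-seq) on mouse embryonic fibroblasts. The authors' histogram was taken whole, with all 4001 positions from -2000 to 2000 bp around the peak centres and the plus-strand and minus-strand tag columns of 3 libraries out of the 8 samples of the series. The 3 libraries were precipitated with antibodies to HMGA2, to γ-H2AX (H2AXS139ph in the labels) and to ATM. All 3 used Hmga2 wt cells of the C57BL/6 strain, prepared from E15.5 embryos and used at passages 2 to 4. No treatment is named in the labels. The HMGA2, γ-H2AX and ATM libraries of Hmga2 Ko cells and the 2 input libraries were not analysed here. There was 1 library per antibody, so no replicate error exists, no test between antibodies was made, and every interval covers counting error only.

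HMGA2 is a small chromatin protein that binds the minor groove of AT-rich DNA through its AT-hooks and is abundant in embryonic tissue. ATM is a protein kinase that responds to breaks in DNA. It phosphorylates the histone variant H2AX near its C-terminus, and the product, γ-H2AX, marks chromatin around broken DNA and is also found at some transcribed genes. In ChIP-seq a fragment is read from its 5' ends. Plus-strand tags therefore gather on the left of a bound site and minus-strand tags on its right, and around such a site the distance between the piles reflects the length of the pieces that were read.

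In the histogram a value is the mean number of tag 5' ends at 1 position per HMGA2 peak, scaled by the authors to 30 M tags per library. Values are given below as tags per bp and 1000 HMGA2 peaks. Left and right mean lower and higher genome coordinates, since the deposited peaks carry no strand. Over the 152834 HMGA2 peaks the windows held 12.1 M tags of HMGA2, 10.3 M of γ-H2AX and 10.2 M of ATM, counted once for each peak in whose window they lie. At the median position a strand carried 5.87 to 6.19 tags in the 3 libraries. Lowest positions lay between 4.65 for ATM and 4.87 for HMGA2, which still stood for 696 tags or more at a single base. The defining markers of fibroblasts cannot be checked in an average of this kind.

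The profiles held narrow piles of tags, and most of the piles stood at the same bases in all 3 libraries. Medians over 250 bp also rose, from 5.35 γ-H2AX plus-strand tags at -1000 to -751 bp to 14.3 at -250 to -1 bp. On the plus strand the highest position was 272 bp right of the centre for HMGA2 (67.0 tags) and γ-H2AX (60.5 tags) and 271 bp for ATM (61.4 tags). The highest minus-strand position was 340 bp in each library, with 64.2, 57.2 and 57.05 tags. These maxima were 9.60 to 10.8 times the median position. They were single-base maxima away from the centre of the HMGA2 peaks, also in the HMGA2 library itself.

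**Figure D1:**
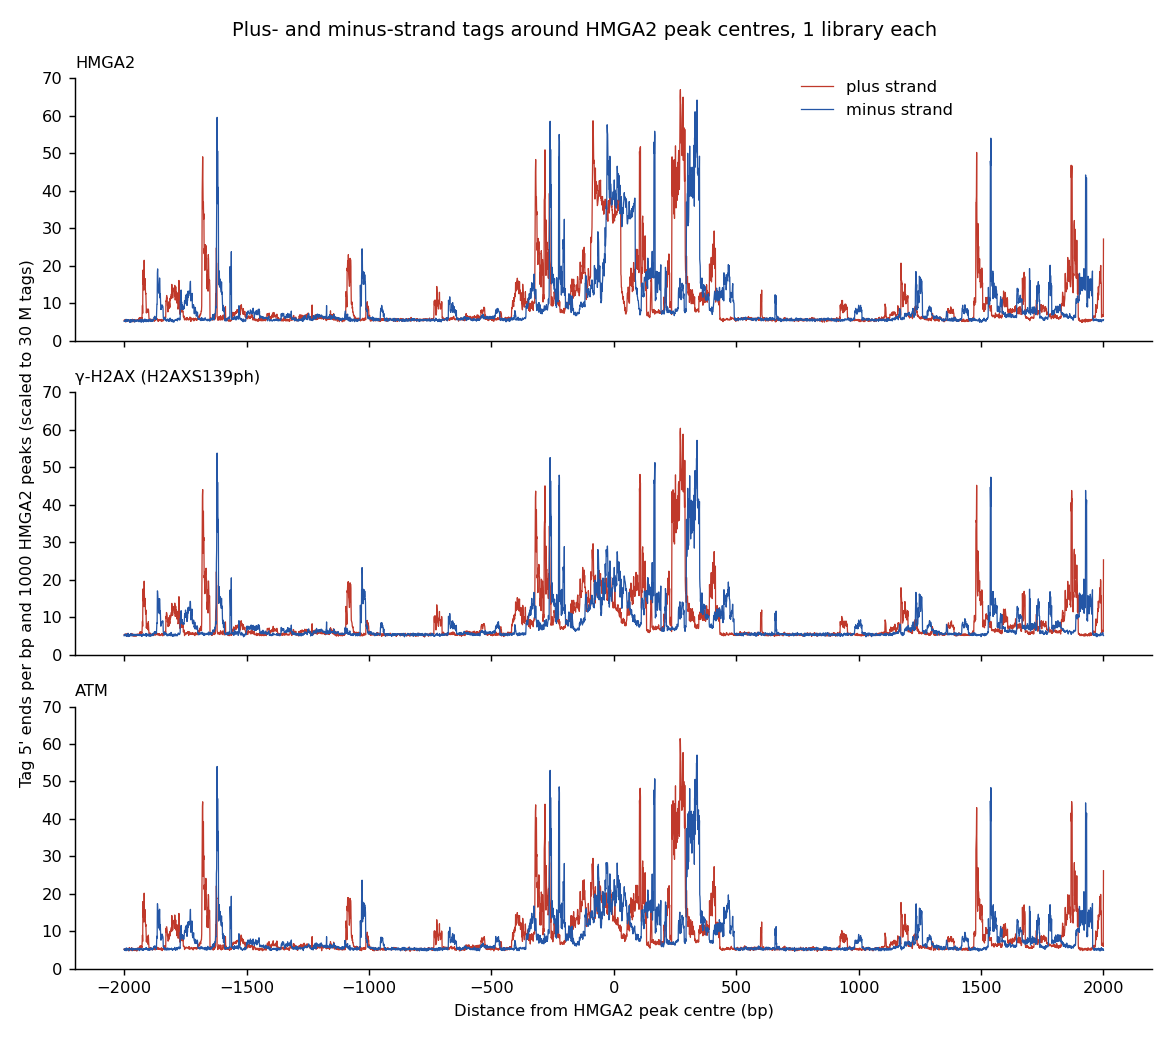
Tag 5' ends per bp and 1000 HMGA2 peaks (y axis) against distance from the HMGA2 peak centre in bp (x axis) for 1 library each of HMGA2, γ-H2AX and ATM, plus strand in red and minus strand in blue. Narrow piles recur at the same places in the 3 panels, with the highest plus-strand position at 271 or 272 bp and the highest minus-strand position at 340 bp.

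All 3 libraries were higher close to the centre than in the flanks, and HMGA2 most. Within 100 bp of the centre the mean level was 28.4 tags on the plus and 29.2 on the minus strand for HMGA2, 15.6 and 16.4 in the γ-H2AX library, and 15.6 and 16.5 in the ATM library. The flanks at 1000 to 1800 bp held 7.66 and 7.54 tags of HMGA2, 7.29 and 7.23 of γ-H2AX, and 7.21 and 7.16 of ATM. The HMGA2 centre was thus 3.71 times (95% counting interval 3.70 to 3.72) and 3.87 times (3.86 to 3.88) its flanks. The ratios were 2.14 and 2.27 in the γ-H2AX library and 2.17 and 2.31 in the ATM library. The sites were called in the HMGA2 library, so its ratio follows from the choice of sites and is a description. Flank means include piles: the ratio of medians was 5.42 on each strand for HMGA2 and 2.63 to 2.77 for the other libraries.

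Taken as means over stretches of 250 bp, the γ-H2AX and ATM levels were not highest at the HMGA2 centre, but as medians they were. In the stretch from 250 to 499 bp the γ-H2AX plus strand averaged 15.8 tags and the minus strand 17.1, against 14.03 and 13.98 from 0 to 249 bp and 14.4 and 14.03 from -250 to -1 bp. ATM had 15.6 and 17.1 tags at 250 to 499 bp. On the other side, from -500 to -251 bp, γ-H2AX had 11.8 and 8.59 tags. For HMGA2 the order differed. Its levels at 250 to 499 bp, 17.3 and 19.04 tags, were below those of the 250 bp left of the centre (22.3) on the plus strand and right of it (21.9) on the minus strand. Between the piles the level came close to that of the flanks again. The lowest 21-bp mean within 250 bp of the centre was 1.13 to 1.16 times the flank median for γ-H2AX and ATM, and 1.17 to 1.22 times for HMGA2.

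Minus-strand tags lay 59 bp to the right of plus-strand tags in every library. The lag with the highest cross-correlation of the plus and minus profiles was 59 bp for HMGA2, γ-H2AX and ATM, at a correlation across positions of 0.961, 0.944 and 0.942. Without a lag it was 0.320, 0.162 and 0.164. Left and right flanks beyond 500 bp, taken alone, gave the same 59 bp in each library, at correlations of 0.90 to 0.92. The maxima of 21-bp means were 56 bp apart for HMGA2 (280 and 336 bp) and 60 bp apart for γ-H2AX and ATM (280 and 340 bp). Neighbouring positions share reads and sites, so these correlations are descriptions. Whether 59 bp was the length of the pieces that were read was not tested. The authors' peak calls used a shift size of 30 bp, which moves the tags of each strand by 30 bp towards those of the other strand.

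**Figure D2:**
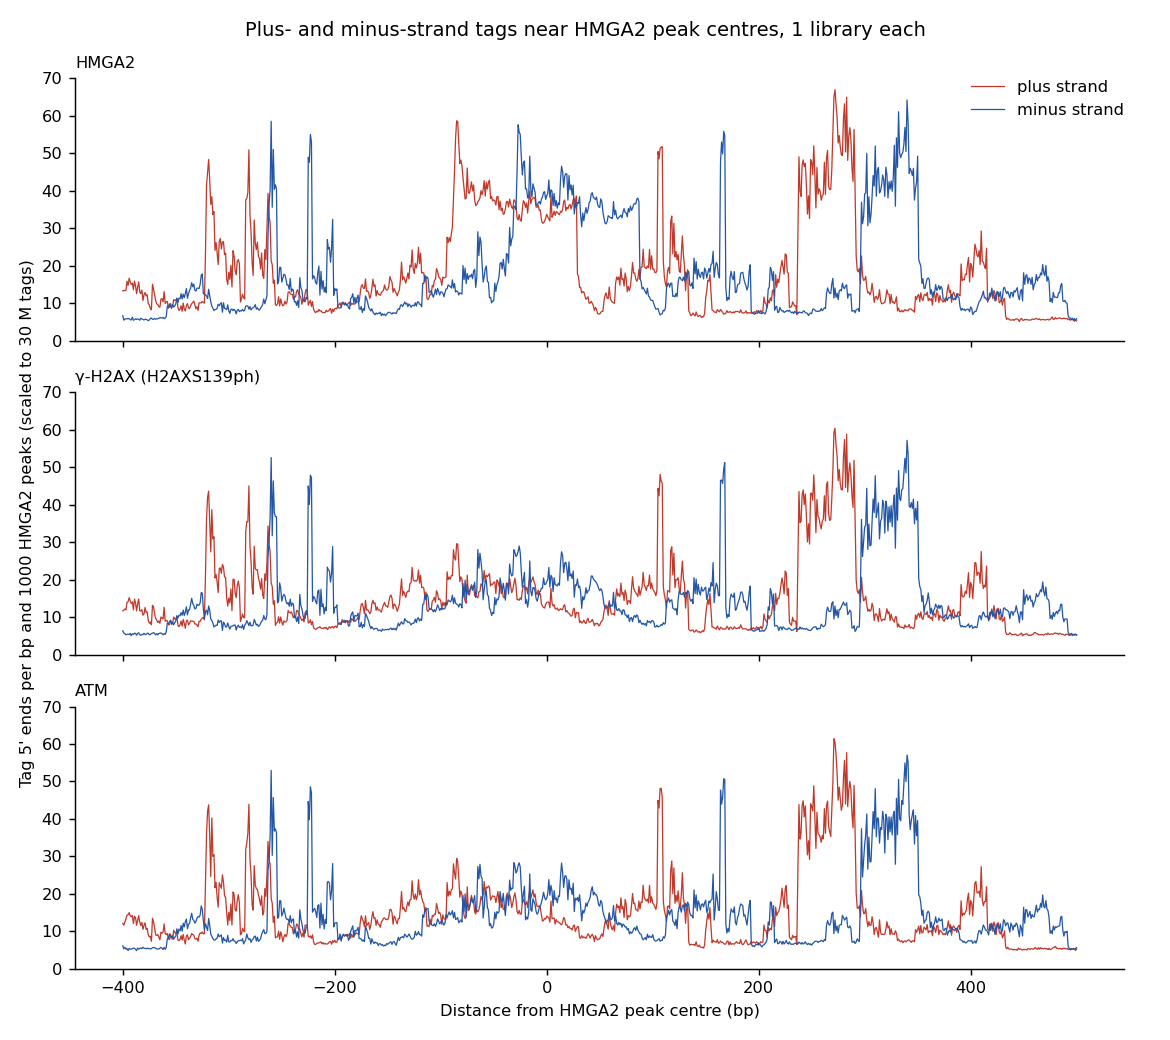
The same plus-strand (red) and minus-strand (blue) tags per bp and 1000 HMGA2 peaks (y axis) from 400 bp left to 500 bp right of the centre (x axis), 1 library each. The blue profile follows the red one 59 bp to its right, and the HMGA2 panel has a broad plateau over the centre, where γ-H2AX and ATM means within 100 bp were 15.6 to 16.5.

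To separate what HMGA2 had in common with γ-H2AX from what it had alone, the HMGA2 profile of each strand was fitted by a straight line on the γ-H2AX profile at positions beyond 250 bp, and the fit was subtracted everywhere. This step was added after the profiles had been seen. Outside, HMGA2 followed γ-H2AX closely, with slopes of 1.12 and 1.13 and correlations across positions of 0.997 on both strands. What remained had an SD of 0.477 (plus) and 0.509 (minus) tags there. At the centre a plateau with sharp edges remained. On the plus strand it ran from -87 to 28 bp, 116 positions at a mean of 19.3 tags, and on the minus strand from -27 to 87 bp, 115 positions at a mean of 19.4 tags.

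The edges, taken where neighbouring bases differed most, were steep. On the plus strand the values were 16.8 tags at -87 bp against 6.45 at the base before it, and 26.4 at 28 bp against 5.80 at the next base. On the minus strand they were 27.1 at -27 bp against 15.49 at the base before it, and 28.01 at 87 bp against 6.75 at the next. Each plateau was higher at its ends than in its middle. The 5 bases at each end averaged 24.6 tags (plus) and 25.7 (minus), 1.50 and 1.55 times the 21 bases in the middle, with 16.4 and 16.5. The minus strand read backwards matched the plus strand, with a correlation of 0.991 across positions within 150 bp, and the best lag between the strands was 59 bp. From 11 to 60 bp right of the plus-strand plateau and left of the minus-strand plateau HMGA2 lay under the fit, with means of -1.08 and -1.32 tags.

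The distance from the first plus-strand position of the plateau to the last minus-strand position, both counted, was 175 bp. This was the most frequent width of the called HMGA2 peaks, with 4303 peaks, while 1167 were 1 bp wider. It was also the most frequent width of the γ-H2AX peaks (3661) and the ATM peaks (3532). The HMGA2 tags that formed the plateau are those on which the peaks were called, so its place and shape are tied to the choice of sites.

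Summed over both strands within 150 bp, the plateau came to 4.46 tags per HMGA2 peak at 30 M tags, or 4.55 tags as sequenced if the inferred depth is right. That was 30.5% of the 14.6 HMGA2 tags per peak found there. The other libraries had 9.30 (γ-H2AX) and 9.31 (ATM) tags per peak in the same 300 bp and the centre base. With ATM in place of γ-H2AX in the fit the plateau held 4.38 tags per peak, and its edges fell on the same bases.

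**Figure D3:**
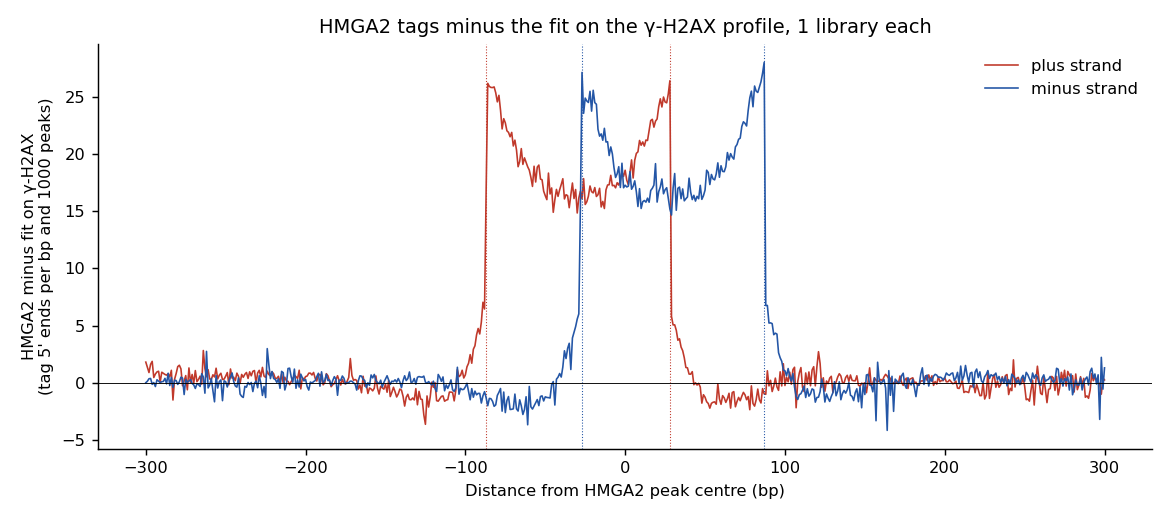
HMGA2 tags per bp and 1000 peaks left after subtraction of the straight-line fit on the γ-H2AX profile (y axis) against distance from the HMGA2 peak centre in bp (x axis), plus strand in red and minus strand in blue, dotted lines at the first and last position of each plateau. The plateaus run from -87 to 28 bp and from -27 to 87 bp, and their ends are 1.50 and 1.55 times as high as their middle.

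The same subtraction between γ-H2AX and ATM left much less at the centre. The γ-H2AX profile minus its fit on ATM averaged -0.16 tags on the plus and -0.097 on the minus strand within 100 bp. Its SD over single positions was 0.531 and 0.553 tags there, against 0.373 and 0.365 beyond 250 bp. HMGA2 minus its fit on γ-H2AX averaged 11.3 and 11.2 tags in the same stretch. Position by position, γ-H2AX and ATM counts differed by little more than counting error. The differences had an SD of 1.07 (plus) and 1.09 (minus) counting SDs, and 30 and 28 of the 4001 positions, 0.75% and 0.70%, were over 3 counting SDs. Between HMGA2 and γ-H2AX 716 and 685 positions were, 17.9% and 17.1% of all, and beyond 250 bp from the centre 2.86% and 2.83%. The sites were called in the HMGA2 library alone. Its excess near the centre, in tags and in positions counted, therefore follows from their choice.

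As means over all HMGA2 peaks, the γ-H2AX and ATM profiles do not show how many peaks carried either. Without an input profile, tags of an antibody cannot be told apart here from background that every library holds at the same bases.

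Tags were not evenly spread over the 2 sides. Within 1000 bp, 53.5% of the HMGA2 tags (95% Wilson interval 53.48 to 53.55), 53.7% of the γ-H2AX tags (53.63 to 53.71) and 53.7% of the ATM tags (53.68 to 53.76) lay right of the centre. The lean came from stretches away from the centre. Within 200 bp the shares were 49.6%, 49.2% and 49.2%, and within 500 bp 55.0%, 55.5% and 55.6%. The highest 50 plus-strand positions in a row more than 150 bp right of the centre, ending at 290 bp, averaged 48.1 HMGA2 tags, 43.5 γ-H2AX tags and 43.1 ATM tags. Their mirror stretch left of the centre had 19.97, 17.7 and 17.3. The highest 50 minus-strand positions, ending at 350 bp, had 44.8, 39.6 and 39.9 tags, against 11.7, 10.8 and 10.9 in their mirror stretch. This search was added after the profiles were seen.

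By strand, the sides near the centre differed most on the HMGA2 plus strand. Within 100 bp, 35.6% of plus-strand and 57.5% of minus-strand HMGA2 tags lay on the right. For γ-H2AX the shares were 42.0% and 46.8%, and for ATM 41.8% and 47.1%, below 50% on both strands. Farther out this order did not hold. Within 1000 bp, 49.6% of plus-strand HMGA2 tags lay on the right, against 52.1% for γ-H2AX and 52.0% for ATM, and on the minus strand 57.6%, 55.3% and 55.5%. Plus-strand tags made up 49.3%, 48.7% and 48.6% of the HMGA2, γ-H2AX and ATM tags within 100 bp, and 50.9%, 50.9% and 50.8% within 1000 bp.

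Called γ-H2AX and ATM peaks were also placed around the HMGA2 centres. Of the bases they covered within 2000 bp, 50.3% lay right of the centre for γ-H2AX and 50.3% for ATM. A γ-H2AX peak covered the centre base of 1.43% of the HMGA2 peaks and an ATM peak that of 1.32%. Within 100 bp the mean was 1.39% for γ-H2AX against 0.998% in the flanks, a ratio of 1.39, and 1.27% against 0.892% for ATM, a ratio of 1.42. Among peaks scored 30 or more, with 17726 HMGA2 peaks, the ratios were 2.28 for γ-H2AX and 2.59 for ATM. They rest on few sites, with no interval. The means were 0.332% within 100 bp against 0.146% in the flanks for γ-H2AX, and 0.344% against 0.132% for ATM. In these ratios each site counts once whatever its tags.

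Spikes were counted as positions at least 5 robust SDs (SDs taken from the median absolute deviation) above the median of the 50 bp on each side. The plus strand had 525 HMGA2, 507 γ-H2AX and 498 ATM spikes and the minus strand 506, 494 and 495, which was 12.3% to 13.1% of the positions. They formed 115 to 136 runs per strand and library with a median length of 1 or 2 bp, and the longest run had 26 to 44 bp. A further 85 to 114 positions per strand and library lay at least 5 robust SDs below the local median. Spikes carried 27.8% to 30.8% of all tags. On the plus strand 443 positions were spikes in all 3 libraries, 76.0% of the 583 that were a spike in any, and on the minus strand 436 of 560, 77.9%. Between γ-H2AX and ATM 92.7% and 94.4% of the plus-strand spikes of each list were shared. Of the HMGA2 spikes, 48 on the plus strand (9.14%) and 35 on the minus strand (6.92%) were in neither other library. Of these, 52.1% and 48.6% lay within 120 bp of the centre, in windows that reach 2000 bp to each side. The plateau lies there, and it is tied to the choice of sites.

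The 3 strongest plus-strand spikes, 1 per run, were the same bases in each library. At -1679 bp the HMGA2, γ-H2AX and ATM libraries had 49.1, 44.1 and 44.6 tags, 8.08, 7.46 and 7.52 times the local median. At 1482 bp they had 50.2, 45.2 and 43.03 tags, and at -319 bp 48.4, 43.7 and 43.8 tags. On the minus strand the strongest spikes stood at -1620 bp (59.6, 53.8 and 54.0 tags), -260 bp (58.6, 52.6 and 53.0 tags) and 1540 bp (54.05, 47.4 and 48.4 tags). HMGA2 was the highest library at each of these 6 bases, and γ-H2AX and ATM lay close together below it. The spike at -1679 bp stood for 7655 HMGA2 tags at 1 base.

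Most plus-strand spikes had a minus-strand partner. A minus-strand spike stood exactly 59 bp right of 369 of the 525 HMGA2 plus-strand spikes (70.3%), 69.0% of the γ-H2AX and 69.1% of the ATM ones. At the same base it was 7.62%, 7.10% and 7.63%, and the median over lags of up to 200 bp either way was 13.9%, 13.4% and 13.7%. The 2 longest stretches without a spike in any profile differed. From 664 to 924 bp the variance of the tags per base was 1.26 to 1.55 times their mean, at 791 to 877 tags per base. From -1529 to -1233 bp it was 12.1 to 16.04 times the mean.

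The profiles repeated themselves at 2 distances. After subtraction of a 51-bp running mean, the autocorrelation at lags of 400 to 3000 bp was highest at 1763 bp and next highest at 1360 bp in all 6 profiles. At 1763 bp it was 0.158 and 0.165 for HMGA2 on the plus and minus strand, 0.181 and 0.187 for γ-H2AX, and 0.183 and 0.185 for ATM. At 1360 bp it was between 0.145 and 0.153. Lower maxima lay at 592 to 598 bp (0.0975 to 0.112) and at 1952 to 1958 bp (0.0993 to 0.12), while the SD over these lags was 0.0238 to 0.0256. The leading spikes were part of this. On the plus strand -1679 and -319 bp are 1360 bp apart, and -281 and 1482 bp, with 50.9 and 50.2 HMGA2 tags, are 1763 bp apart. So are 105 and 1868 bp, with 50.5 and 46.8 HMGA2 tags. On the minus strand -1620 and -260 bp are 1360 bp apart, and -223 and 1540 bp, with 55.04 and 54.05 HMGA2 tags, are 1763 bp apart.

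A region of chromosome 2 holds HMGA2 peaks at these same distances. It was chosen after its values had been seen. Its HMGA2 peaks lay on mm10 chromosome 2 at 98662115 to 98663000, 98663643 to 98664191, 98664872 to 98665284 and 98666226 to 98667457, with authors' scores of 164, 73.9, 22.4 and 41.6. The first ranked 14 among all HMGA2 peaks, and the γ-H2AX peaks at both ends of the region ranked 3 and 4 in their list. The score is 10 times the negative log10 of the peak's p. In the RefSeq gene table of the same build (GRCm38) no listed gene overlaps the region, and the nearest are the pseudogene Gm13806, 60.7 kb to the left, and the non-coding RNA gene Gm33780, 35.1 kb to the right. The centres of the first pair of peaks are 1360 bp apart and those of the last pair 1763 bp. Whether the region was the source of the spikes was not tested, and other pairs of HMGA2 peaks lie at the same distances.

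Other distances in the region did not show. Between its centres there are also distances of 1161, 2521 and 2924 bp, at which the autocorrelation was -0.0083 to 0.0211, with ranks of 394 to 1794 among the lags. The spike pairs named above, if they came from this region, would lie within 2000 bp of its first or last pair of centres only. They could not repeat at the other distances, so the missing maxima say nothing of where these pairs came from. In the whole list 17 pairs of HMGA2 peak centres were 1763 bp apart and 13 were 1360 bp apart. When spikes were counted by position, without their height, 1763 bp ranked 48 to 90 and 1360 bp 436 to 732 among 3101 lags. The part of the tags that came from this region, or from the chromosome 14 peak of 4148 bp that spans the whole window (19415574 to 19419721, score 641, no listed gene overlapping), was not tested.

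**Figure D4:**
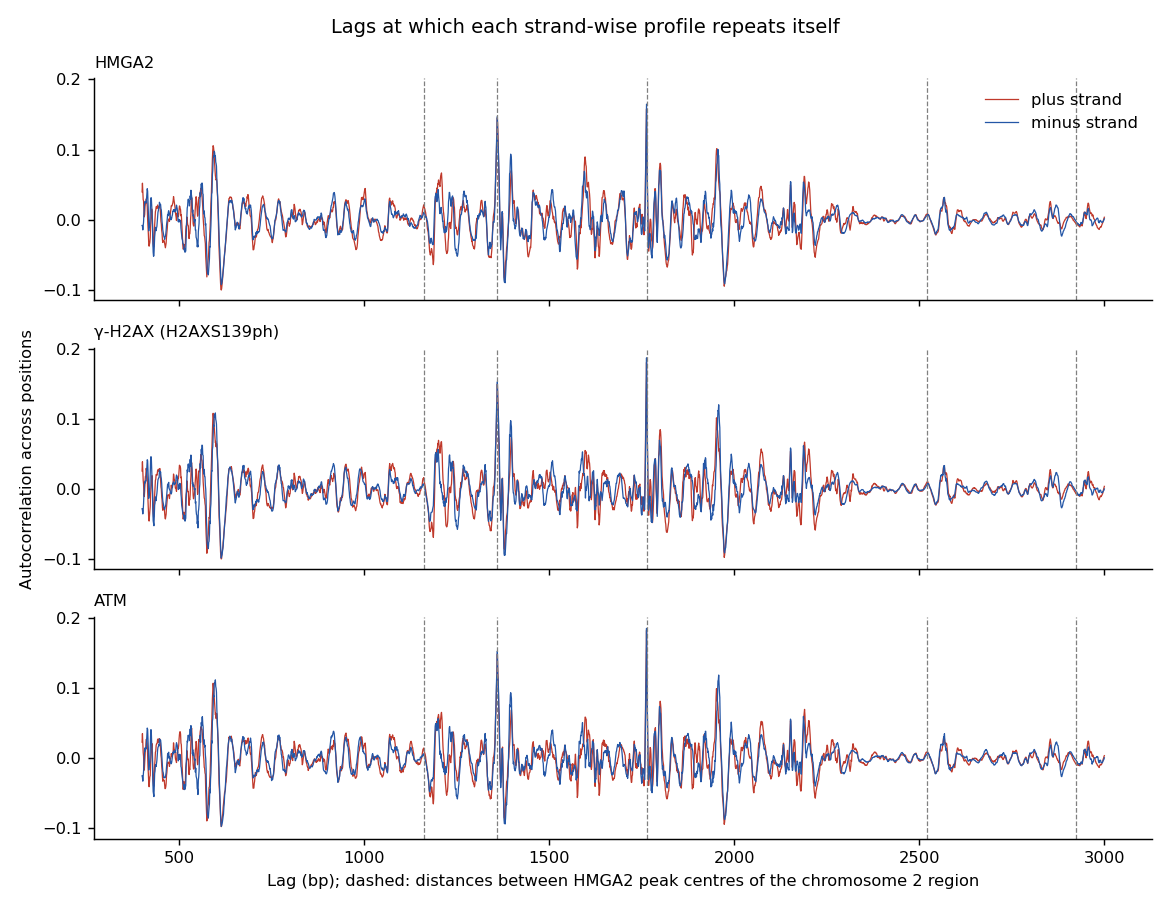
Autocorrelation across positions (y axis) of each strand-wise profile after subtraction of a 51-bp running mean, against lag in bp (x axis), plus strand in red and minus strand in blue, 1 library per panel. Dashed lines mark distances between HMGA2 peak centres of the chromosome 2 region. Sharp maxima stand at 1360 and 1763 bp in each panel, and none at 1161, 2521 or 2924 bp.

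The called peaks of the region differed between the lists. Its first HMGA2 peak overlaps a γ-H2AX peak scored 204 and an ATM peak scored 214. Its last, scored 41.6, overlaps a γ-H2AX peak scored 200.97 and no called ATM peak. The profile sums tags over all HMGA2 peaks and gives no tag level at 1 site.

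The strongest period between 5 and 300 bp was 174 bp on both strands of γ-H2AX and ATM and on the plus strand of HMGA2, with 5.50% to 7.06% of the power. On the HMGA2 minus strand 267 bp was strongest (4.24% of the power) and 174 bp next. With spikes replaced by the local median, the strongest period was 267 and 286 bp for HMGA2 (plus, minus), 174 bp on both strands for γ-H2AX, and 160 and 174 bp for ATM. The autocorrelation at lags of 60 to 300 bp was highest at 160 to 166 bp for γ-H2AX and ATM, at 0.104 to 0.139. For HMGA2 it was highest at 299 and 300 bp, at 0.195 and 0.203. These lags are the end of the range searched and need not be a repeat distance. With a running mean over 75 bp on each side subtracted, in place of 150 bp, the strongest period became 138 bp in all 6 profiles. Around the helical turn of DNA, periods of 9.5 to 11 bp peaked at 10.8 bp in all 6 profiles, at 6.27 to 8.36 times the median power from 7 to 14 bp. Other periods in that range were stronger, up to 23.7 times at 11.8 bp on the HMGA2 plus strand. The 10.8-bp value ranked 7 to 14 among 286 periods.

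**Figure D5:**
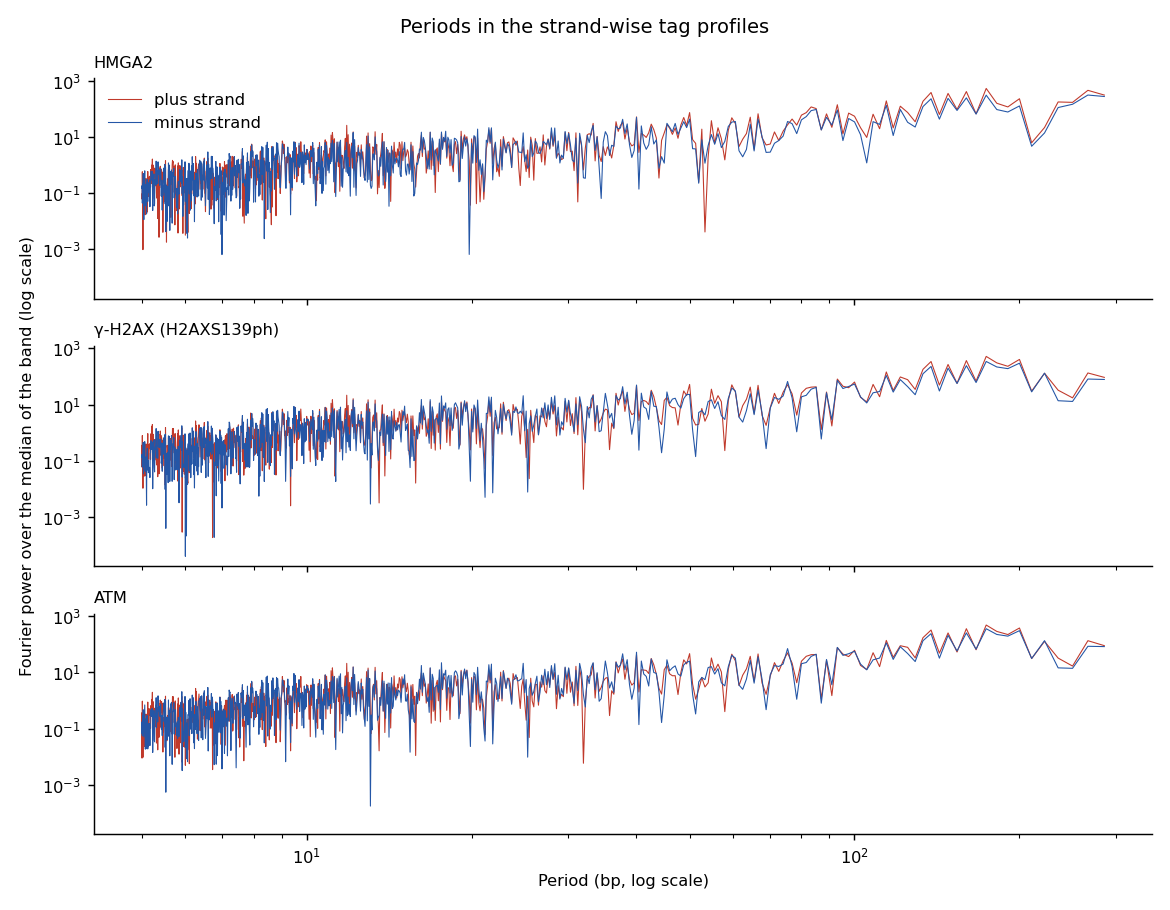
Fourier power of each strand-wise profile after subtraction of a running mean over 150 bp on each side, divided by the median power between 5 and 300 bp (y axis, log scale), against period in bp (x axis, log scale), plus strand in red and minus strand in blue, 1 library per panel. Power is higher at long periods, with 174 bp the highest in 5 of the 6 profiles, and the values near 10.8 bp lie among those of their neighbours.

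The coverage columns of the histogram could be rebuilt from the tags. When each tag was extended from its 5' end by 310 bp for HMGA2, 311 bp for γ-H2AX and 312 bp for ATM, coverage was matched with a root mean square difference of 8.56e-10, 6.44e-10 and 6.69e-10. A length 1 bp greater gave 0.0219, 0.0185 and 0.0184. The extension was over 5 times the strand offset of 59 bp, so a pile of a few bases in the tags covers over 300 bp in the coverage columns. Coverage was highest at 33 bp for HMGA2 and at 133 bp for γ-H2AX and ATM, where neither strand of those libraries has its maximum. Only tags inside the window entered the match, and coverage at the window's left end was 2.21 for HMGA2 against a median of 4.53.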

How the data were processed

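Per the labels' protocols, chromatin was sonicated and precipitated with the antibody, and libraries were made with the Ovation Ultra Low kit. The submitters' processing notes name mm10 as the build, and as tools Bowtie2, Trimmomatic, SAMtools, HOMER and MACS, with no version. Filters, the handling of duplicate reads, read length and the control of the peak calls are not given in the sources used here. Per the file headers, the authors made the signal values (mean coverage and mean tag 5' ends per bp and peak) with HOMER over 4000 bp in bins of 1 bp, normalised to 30 M tags. Per the labels, the authors called peaks with MACS14 without its model, at a p threshold of 0.01 and a shift size of 30 bp, and the deposited score is 10 times the negative log10 of p.

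Tag values times the 152834 peaks were whole multiples, within 0.05, of 0.98 (HMGA2) or 1.02 (γ-H2AX, ATM) at 100% of positions, against at most 50.7% with the next best step. If the step is 30 M over the library's tags, depth was about 30.6 M, 29.4 M and 29.4 M tags. Whole tags gave the Wilson and counting intervals, which cover counting error only and treat every count as independent. Reads without molecular identifiers need not be independent, and a tag in the windows of several peaks was counted more than once. The intervals can therefore be too narrow. Peak centres were midpoints of the 1-based bounds. Positions named are the highest and lowest per library and strand and the 3 strongest spikes. Positions that were spikes in all libraries are given as counts, and other named positions were chosen after their values were seen. The measures were chosen with earlier results of these data known. Calculations used Python 3.11.15 and NumPy 2.4.6. Offset, spike, period, lag and step functions were tested on simulated profiles and recovered what was planted. The profile with the planted period had no raised centre, unlike these data. That test therefore does not cover long periods in profiles with piles at the centre.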

Additional observations from a re-analysis of the deposited data

How the results depend on the processing

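No paired analysis was possible because each antibody had 1 library and no test was run. The strand offset of HMGA2 was 59 bp with 51-bp means, 59 bp by cross-correlation and 62.1 bp between centres of mass, and that of γ-H2AX was 57.2 bp between centres of mass. Set against flanks at 1500 to 2000 bp, the centre (plus, minus) was higher by factors of 3.18 and 3.39 for HMGA2, 1.86 and 2.01 for γ-H2AX and 1.87 and 2.04 for ATM. With medians they were 5.42 and 5.42, 2.63 and 2.73, and 2.66 and 2.77. The share of tags right of the centre turned to the left within 200 bp, at 49.6% (HMGA2), 49.2% (γ-H2AX) and 49.2% (ATM). It was 53.2%, 53.3% and 53.3% within 2000 bp, and 53.2%, 53.2% and 53.3% with spikes replaced by the local median. The plus-strand share also turned within 200 bp, to 49.97%, 49.8% and 49.7%. It was 50.9% for HMGA2 within 2000 bp, and 50.7%, 50.8% and 50.8% with spikes replaced. At 8 robust SDs, HMGA2 had 347 and 330 spikes (plus, minus), ATM 320 and 313, and the γ-H2AX minus strand 311. The strongest period was 138 bp in all 6 profiles with a mean over 75 bp on each side subtracted. Beyond 500 bp from the centre it was 136 bp on the minus strand and 187.5 bp on the plus strand of each library. With spikes replaced by the local median, an alternative chosen after seeing the data, it was 267 bp on the HMGA2 plus strand. Of the bases covered by called peaks scored 30 or more, 49.4% (γ-H2AX) and 47.1% (ATM) lay right of the centre. The ratios of these peaks at the centre to those in the flanks were 2.28 and 2.59, and few sites carried them. Both fits of the HMGA2 plateau added after seeing the data gave 59 bp, with 4.38 and 4.55 tags per peak. At 791 to 877 tags per quiet base, differences between libraries of a few percent at 1 base are within counting error.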
